A study of Homo sapiens with 10 samples.

Results

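The genes described here are 10 immediate early genes, FOS, FOSB, FOSL1, FOSL2, JUN, JUNB, JUND, EGR1, IER2 and MYC, out of 19775 genes with at least 1 probe set that names no other gene. They were chosen by name, with earlier results of these data known, and every probe set annotated to only 1 of them was read on all 10 arrays, which gave 22 probe sets. FOSL2 has 5 probe sets, JUN and JUND have 4 each, EGR1 has 3, and the remaining 6 genes have 1 each. A gene with several is represented in the gene-level tests by its brightest one, and 8 of the 10 genes passed the filter on low values, an intensity of 19.7 on average over the arrays. FOS and FOSB did not.

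Affymetrix arrays were hybridised with RNA of 2 established non-small cell lung carcinoma lines, the squamous line HTB-182 and the adenocarcinoma line A549, with 5 arrays a line. Cells of both lines first spent 4 h in medium with 10% charcoal-stripped serum, which carries little steroid hormone, and were then exposed for 3 h in such medium, so the vehicle arrays share the change of serum. The 5 exposures of each line were 0.1% ethanol as the vehicle, 1 µM 17-beta-estradiol (E2), 1 µM E2 with 10 µM tamoxifen, 1 µM E2 conjugated to bovine serum albumin (E2-BSA), and 1 µM E2-BSA with 10 µM tamoxifen. E2-BSA is a bulky conjugate used as an estrogen that is kept largely outside the cell, and tamoxifen is a ligand of estrogen receptors that blocks or mimics estradiol depending on the tissue. The titles of the E2 with tamoxifen arrays name tamoxifen only, and their source descriptions name both agents, which is how they are taken here. Albumin alone and tamoxifen alone are not among the exposures, so the steroid and its carrier protein cannot be told apart. Each combination of line and exposure has 1 array, every comparison with vehicle in a line uses its single vehicle array, and a p-value reflects only how these arrays scatter, which may be technical. In bulk RNA, fewer cells with a transcript and less of it per cell cannot be told apart.

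Immediate early genes are transcribed within minutes of a serum, growth factor or stress signal from factors already in the cell, and their mRNAs are short-lived. FOS proteins pair with JUN proteins to form the transcription factor AP-1, the zinc finger factor EGR1 is switched on by the same kinases through serum response factor, and MYC pairs with MAX to drive growth and ribosome genes. Estradiol acting at the cell membrane is known to feed into the same kinases, and ligand-bound estrogen receptor can act on AP-1 sites, which is why these genes are commonly read in cells given free or albumin-bound estradiol.

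The promoters of the members were searched for the sites that AP-1, related factors and estrogen receptor bind. RefSeq promoter windows on GRCh38.p14 matched 8 of the 10 members, and the 250 bases before the annotated start were read 5′ to 3′ on the gene's own strand. The windows below are those of FOSL2 and the JUN family, whose results are described most fully, and of EGR1, the classical serum-responsive gene. Capitals mark the core of the cAMP response element, TGACGT or its complement ACGTCA, the whole element TGACGTCA, and the CArG box that serum response factor binds.
FOSL2, chr2:28392608-28392857, plus strand: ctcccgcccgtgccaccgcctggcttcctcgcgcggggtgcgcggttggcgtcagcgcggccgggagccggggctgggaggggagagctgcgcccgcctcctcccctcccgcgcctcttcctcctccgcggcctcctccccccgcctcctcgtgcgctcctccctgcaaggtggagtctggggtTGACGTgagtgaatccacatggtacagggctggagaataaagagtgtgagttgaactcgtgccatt
JUN, chr1:58784048-58784297, minus strand: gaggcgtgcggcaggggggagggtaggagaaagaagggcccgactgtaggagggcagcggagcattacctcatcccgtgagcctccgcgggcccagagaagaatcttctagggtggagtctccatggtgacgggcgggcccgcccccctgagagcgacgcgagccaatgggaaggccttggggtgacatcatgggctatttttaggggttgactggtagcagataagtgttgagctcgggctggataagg
JUNB, chr19:12791236-12791485, plus strand: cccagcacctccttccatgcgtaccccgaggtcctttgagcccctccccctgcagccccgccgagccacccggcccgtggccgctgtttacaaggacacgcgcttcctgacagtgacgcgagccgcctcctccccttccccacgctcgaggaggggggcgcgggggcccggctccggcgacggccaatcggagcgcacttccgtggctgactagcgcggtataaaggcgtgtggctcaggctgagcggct
JUND, chr19:18281623-18281872, minus strand: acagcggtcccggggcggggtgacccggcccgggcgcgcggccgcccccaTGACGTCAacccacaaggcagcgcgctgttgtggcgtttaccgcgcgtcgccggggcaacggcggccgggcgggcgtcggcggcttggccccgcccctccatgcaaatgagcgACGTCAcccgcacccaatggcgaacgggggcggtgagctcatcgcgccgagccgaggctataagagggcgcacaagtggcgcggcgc
EGR1, chr5:138465229-138465478, plus strand: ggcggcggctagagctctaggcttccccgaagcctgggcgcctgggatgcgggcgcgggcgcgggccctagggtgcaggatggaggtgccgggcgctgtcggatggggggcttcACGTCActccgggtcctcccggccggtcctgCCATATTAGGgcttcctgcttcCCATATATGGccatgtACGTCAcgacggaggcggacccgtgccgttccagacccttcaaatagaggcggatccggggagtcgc
TGACGT occurred on either strand in 5 of the 8 windows (FOS, FOSB, FOSL2, JUND and EGR1), against 7.10% of the 35116 windows of the same length in the table. In FOS it lies 64 to 59 bases before the start (-64 to -59), in FOSB at -60 to -55 and in FOSL2 at -66 to -61. JUND carries the whole element TGACGTCA at -200 to -193, found in 1.65% of all windows and containing the core on both strands, and a further core at -87 to -82. Of the 8 windows only that of EGR1 holds a CArG box, a motif in 1.16% of all windows, and it carries 2, at -105 to -96 and -83 to -74, beside cores at -136 to -131 and -67 to -62. Boxes further upstream than 250 bases were not searched for in any member, and FOSL1 and MYC had no window. JUN, JUNB and IER2 held none of these letters in this window. The AP-1 site TGACTCA (4.20% of all windows), the E-box CACGTG bound by MYC (6.34%), the EGR1 sites GCGGGGGCG (4.72%) and GCGTGGGCG (0.720%), and the full palindromic estrogen response element (0.0399%) were in 0 of the 8 windows, each searched on both strands.

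**Figure D1:**
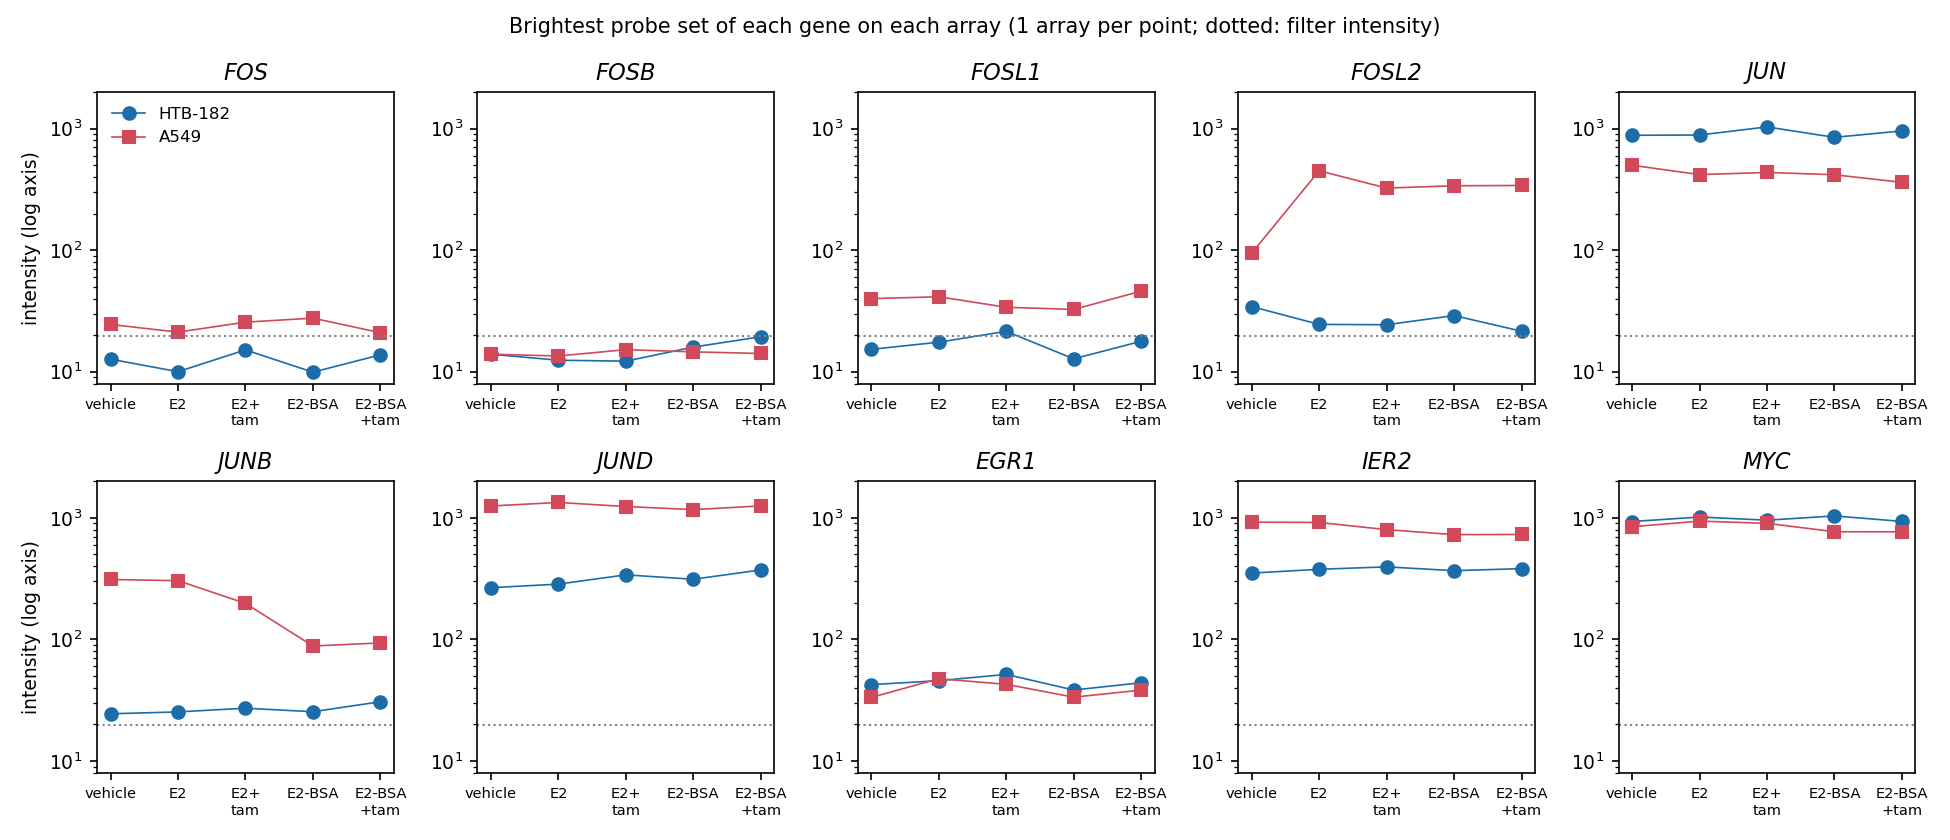
Intensity (log axis) of the brightest probe set of each of the 10 genes on each of the 10 arrays, by exposure (horizontal axis), with HTB-182 as circles and A549 as squares; each point is 1 array and the dotted line is the filter intensity of 19.7. FOSL2 in A549 is at 94.5 on the vehicle array and at 324.1 or more on the exposed arrays, JUNB in A549 is at 311.2 with vehicle and at 93.6 or less on both conjugate arrays, and FOSL2 in HTB-182 lies between 21.5 and 34.4.

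The lines differed in most of these genes and in different directions. On the log2(intensity + 16) scale, used throughout for differences, 7 of the 8 tested members differed between the lines in limma at an adjusted p under 0.05, 5 of them higher and 2 lower in A549. This is close to the background, since 65.7% of the 12979 genes tested were called (33.6% higher and 32% lower). The arrays of the lines did not overlap for 6 of the 8 members, against 58.5% of all genes. Both member counts include FOSL1, which passed the filter through A549, where it is higher.

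In the FOS family, FOS itself stayed near or under the filter. Its intensities in HTB-182 were 12.7 with vehicle, 10.0 with E2, 15.1 with E2 and tamoxifen, 9.92 with E2-BSA and 13.8 with E2-BSA and tamoxifen. In A549 they were 24.5, 21.2, 25.6, 27.6 and 20.9 in the same order. All A549 arrays lay above all HTB-182 arrays, and with no filter on low values FOS was 0.50 ± 0.07 (SE) log2 higher in A549 in limma (adjusted p = 1.17e-04). FOSB, a paralog with a similar role, was at 12.2 to 19.4 in HTB-182 and 13.5 to 15.2 in A549. Its lines overlapped, and the difference without the filter was -0.02 with a 95% interval of -0.15 to 0.11.

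FOSL1 (FRA-1), an AP-1 subunit linked to invasive growth, was also low. Its intensities in HTB-182 were 15.3, 17.5, 21.5, 12.8 and 17.8 for vehicle, E2, E2 with tamoxifen, E2-BSA and E2-BSA with tamoxifen, and in A549 they were 39.9, 41.4, 33.9, 32.6 and 46.0. The lines did not overlap, with A549 higher by 0.73 ± 0.09 (SE; limma, adjusted p = 1.95e-05). FOSL1 averaged 17.0 in HTB-182, under the filter intensity, and passed it through A549, where it is higher. Its difference is therefore given as a description of that level and not as support for a difference between the lines. The size is also loosely set and ran from 0.34 with a pseudocount of 64 to 1.15 with a pseudocount of 1.

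FOSL2 (FRA-2), a FOS relative that lacks the strong activation domain of FOS, had the largest difference between the lines of the 8 tested members. The probe set 225262_at read 34.4, 24.5, 24.4, 29.0 and 21.5 in HTB-182 and 94.5, 449.9, 324.1, 338.7 and 340.5 in A549, in the same order of exposures. Every A549 array was above every HTB-182 array, by 2.79 ± 0.28 (SE), a 6.93-fold difference (limma, adjusted p = 4.13e-06). In the fit of all single-gene probe sets, 3 other FOSL2 probe sets passed the filter and were higher in A549 as well, 228188_at by 3.42 ± 0.11, 218880_at by 1.08 ± 0.12 and 205409_at by 0.26 ± 0.10 (SE; adjusted p = 2.15e-10, 1.24e-05 and 0.0329). Those 3 averaged 13.1, 9.20 and 17.3 in HTB-182, under the filter intensity, so they passed it through A549, where they are higher, and their differences are given as a description of that level and not as further support. The lines overlapped for 205409_at, and for 218881_s_at, which did not pass.

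The JUN family split. JUN, the main partner of FOS in AP-1, gave intensities of 881.1, 885.4, 1032, 847.4 and 956.9 in HTB-182 by 201464_x_at, a probe set whose suffix marks probes that may match other transcripts. The A549 intensities were 499.5, 418.3, 435.9, 417.2 and 361.4. It was lower in A549 on every array, by 2.12-fold (-1.09 ± 0.09, SE; limma, adjusted p = 1.36e-06), and 201466_s_at and 201465_s_at gave -1.55 ± 0.11 and -0.62 ± 0.18 (adjusted p = 1.97e-07 and 0.00953). The lines overlapped for 201465_s_at, at 72.3 to 107.3 in HTB-182 and 35.5 to 83.4 in A549. The remaining JUN probe set, 213281_at, was under the filter and lower in A549 with no overlap (-0.47). JUNB, which competes with JUN and is less active at single AP-1 sites, read 24.5, 25.3, 27.2, 25.4 and 30.7 in HTB-182 against 311.2, 304.3, 197.9, 88.3 and 93.6 in A549. A549 was higher by 2.17 ± 0.25 (SE), 4.49-fold, with no overlap (limma, adjusted p = 1.54e-05). JUND, the more constantly expressed member, read 266.4, 285.0, 339.7, 312.6 and 372.7 in HTB-182 and 1251, 1338, 1239, 1169 and 1254 in A549 by 203752_s_at. It was higher in A549 by 1.94 ± 0.09 (SE), 3.84-fold (limma, adjusted p = 9.45e-09), while its other 3 probe sets were below the filter, with overlapping lines and differences of 0.00, 0.13 and 0.05. With all 4 probe sets averaged, the JUND difference was 0.53 (adjusted p = 5.16e-05).

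EGR1 did not separate the lines. Its intensities were 42.5, 45.8, 51.5, 38.4 and 44.0 in HTB-182 and 33.3, 47.5, 42.7, 33.5 and 38.3 in A549, which overlap. The difference was -0.14 with a 95% interval of -0.33 to 0.05 (limma, adjusted p = 0.186), and with quantile normalization it was called lower in A549 (-0.20, adjusted p = 0.0385). These values are of 201694_s_at. The other EGR1 probe sets, 201693_s_at and 227404_s_at, were under the filter, with overlapping lines and differences of 0.20 and 0.02. IER2, a small serum-induced nuclear protein, read 351.2, 377.4, 395.2, 367.8 and 382.1 in HTB-182 and 921.8, 916.2, 799.8, 727.6 and 730.1 in A549. The lines lay apart, with A549 higher by 1.09 ± 0.09 (SE; limma, adjusted p = 1.16e-06).

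MYC was far above the filter in both lines, at 932.7, 1016, 956.7, 1037 and 934.7 in HTB-182 and 845.0, 939.9, 901.6, 768.6 and 767.6 in A549. The ranges overlapped, and the difference was -0.21 ± 0.08 (SE), a 1.15-fold lower value in A549 (limma, adjusted p = 0.0351). That call was lost without an intensity trend in the variance (adjusted p = 0.0537) and without 6 of the 10 arrays in turn, where the adjusted p reached 0.135. Those 6 were the E2 with tamoxifen, E2-BSA, and E2-BSA with tamoxifen arrays of both lines. In this fit, leaving out either array of a treatment gives the same difference, so the 2 arrays of a treatment are not separate checks.

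**Figure D2:**
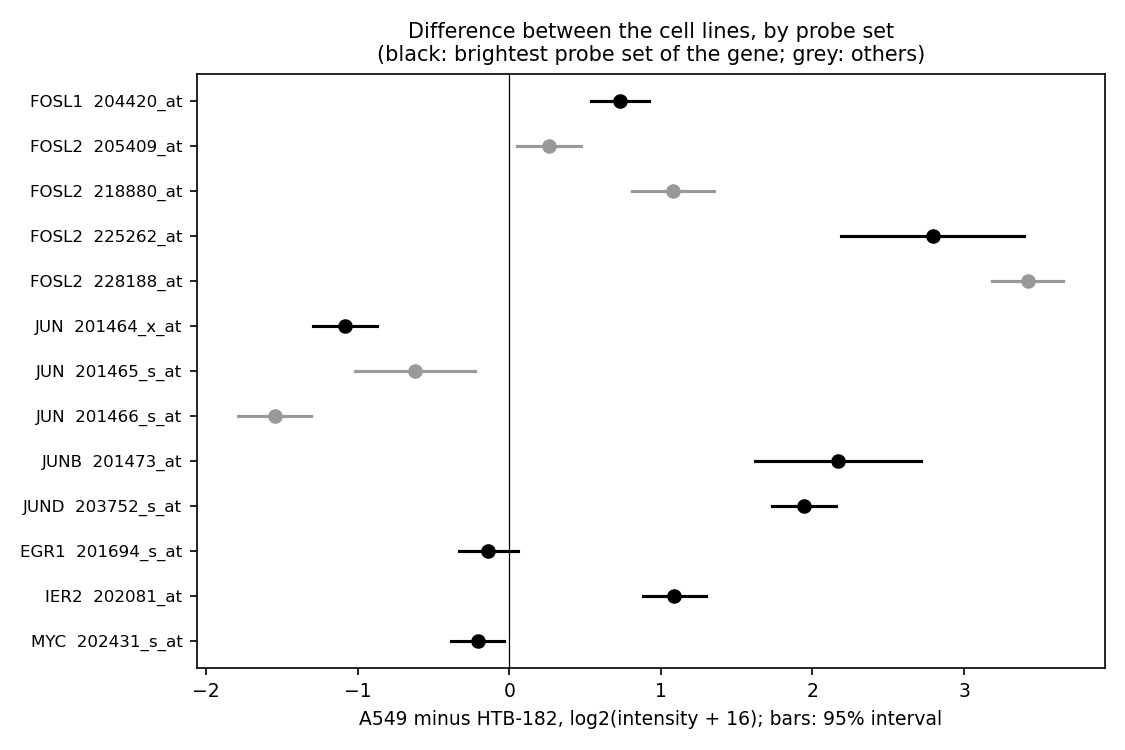
Difference between the lines (A549 minus HTB-182, log2(intensity + 16), horizontal axis) for the 13 member probe sets above the filter, with 95% intervals from the limma fit of all single-gene probe sets; black marks the brightest probe set of a gene and grey the others. FOSL2, JUNB, JUND, IER2 and FOSL1 lie to the right of 0, the 3 JUN probe sets lie to the left, and the interval of EGR1 includes 0.

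The genes around these members also differed between the lines. Of 37 other immediate early genes 32 were tested, 23 were higher and 2 lower in A549, with a median of 0.95 against 0.03 for all genes. That is 78.1% called, against 65.7% of all genes. The filter is on the mean over all arrays, so a listed gene low in 1 line can pass it through the other, where it is higher. Which listed genes did so was not counted. The list counts and named differences here and in the next paragraph therefore describe levels and are not support for a difference between the lines. The largest were PLK2 (5.53 ± 0.12, SE), a stress-induced kinase, IER3 (3.28 ± 0.10), CCN2 (3.22 ± 0.14), a matrix protein, and NR4A2 (2.66 ± 0.11), an orphan nuclear receptor. Of 14 AP-1 target genes tested, 11 were higher and 1 was lower, 85.7% in all, with a median of 1.21, led by the protease inhibitor TIMP1 (5.24 ± 0.11), the protease PLAU (2.80 ± 0.16), the chemokine CXCL8 (2.28 ± 0.18) and the PLAU receptor PLAUR (2.07 ± 0.14). EGR1 corepressors and targets had 6 higher and 0 lower of 8, among them PDGFA (1.84 ± 0.17), TGFB1 (1.71 ± 0.15) and the corepressor NAB1 (1.08 ± 0.10), while EGR1 itself was not called. The 2 fibroblast markers tested include COL1A1, at a mean intensity of 20.6 in HTB-182 and 382.4 in A549, and the summed fibroblast list ranged from 98.5 to 120.5 and from 391.3 to 585.0. Its part in the matrix and AP-1 target differences was not tested.

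The shares called in the other lists lay between 45.5% and 75%, around the 65.7% of all genes. The kinases and serum response factors upstream had 5 higher and 6 lower of 16, with the SRF partner ELK3 at 4.73 ± 0.12 and the kinase MAP2K1 at -1.52 ± 0.07. Leucine zipper partners of AP-1 had 4 higher and 1 lower of 11, with JDP2, a repressor that pairs with JUN, at 1.57 ± 0.11 and ATF2 at -1.05 ± 0.16. In the MYC network 4 of 12 were higher and 5 lower, with MYCL, a MYC paralog, at -3.04 ± 0.12 and the MAX partner MNT at 1.15 ± 0.13. MYC targets had 2 higher and 9 lower of 18 and a median of -0.18, among them the nucleotide synthesis enzymes PPAT (-1.55 ± 0.09) and CAD (-0.78 ± 0.11) and the polyamine enzyme ODC1 (-0.60 ± 0.07). Each difference named passed the test over all genes, with adjusted p from 1.23e-11 to 1.20e-04 in limma.

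The arrays themselves bear on these values in a few ways. The ratio of 3′ to 5′ beta-actin control signal was 3.74 to 6.13 in HTB-182 and 2.66 to 3.57 in A549, so it moves with the line, and its part in the line differences was not tested. The GAPDH ratio was 1.43 to 1.74 over all arrays, and the median intensity of an array was 17.5 to 21.5, highest on the A549 vehicle array. The labels' tissue types were borne out in part: KRT7 averaged 3411 in A549 against 18.1 in HTB-182, and SOX2 averaged 4152 in HTB-182 against 135.3 in A549. The squamous keratin KRT14 and the cadherin DSG3 were under the filter in HTB-182, and the lung factor NKX2-1 was under it in A549. Among markers that went the other way, KRT5 averaged 26.1 in A549 against 22.1 in HTB-182. SFTPB and SFTPC averaged 32.2 and 48.0 in HTB-182 against 27.8 and 41.6 in A549. Of 5 squamous markers tested, 0 were called higher and 3 lower in A549. Of 9 alveolar and adenocarcinoma markers, 7 were higher and 0 lower (60% and 77.8% called, against 65.7% of all genes). The summed blood and endothelial markers ranged from 115.4 to 134.8 in HTB-182 and from 150.1 to 235.2 in A549. On that list CD14 was higher in A549 (10.6 against 82.2 on average) and LYZ was lower (35.9 against 9.24). PTPRC averaged 7.29 in HTB-182 and 8.80 in A549, and CDH5 averaged 4.14 in each, all under the filter. CD3E and PECAM1 were just above it, at 21.5 and 23.2 in HTB-182 and 24.3 and 28.5 in A549. In each line 3 of the 8 genes on that list averaged above the filter. What CD14, LYZ, CD3E and PECAM1 reflect in these 2 cultured carcinoma lines was not tested.

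No member passed the test for any exposure over both lines. With line and treatment as additive terms, 0 of the 8 members passed the test for E2, E2 with tamoxifen, E2-BSA, or E2-BSA with tamoxifen against vehicle, nor for the mean of the 4 against vehicle, and neither did any other gene (0% in each). At an unadjusted p under 0.05 limma gave 581, 594, 840, 962 and 1226 genes, and 0 members in each. Leaving out the HTB-182 vehicle array, which leaves the A549 vehicle array as the only one, called FOSL2 higher in all 5 of these comparisons, and JUNB lower with E2-BSA, with E2-BSA and tamoxifen and over all exposures. That fit called 1078, 1754, 2058, 2104 and 2840 of all genes in the order of the comparisons above. Leaving out the A549 vehicle array called 0 members in each.

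Within HTB-182, none of the 8 tested members reached 1.5-fold on the log2(intensity + 16) scale between an exposed array and the vehicle array, or between paired exposed arrays. As a plain ratio of intensities, FOSL2 was 1.59 times higher with vehicle than with E2-BSA and tamoxifen, at 34.4 against 21.5. The largest was JUND at 0.46 with E2-BSA and tamoxifen against vehicle, followed by FOSL2 at -0.42 in the same pair. The shares of all genes past that fold in HTB-182 were 0.116% to 0.524% by pair and direction. The mean of the exposed arrays minus vehicle was 0.28 for JUND (95% interval -0.03 to 0.58) and 0.08 for MYC (-0.19 to 0.35), and 0 members were called, against 0.0077% of all genes in limma.

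In A549, FOSL2 was the member that stood apart from vehicle. On 225262_at the vehicle array read 94.5, and the exposed arrays read 324.1 to 449.9, with intensity ratios of 3.43 to 4.76. On the log2(intensity + 16) scale all 4 exposed arrays were past 1.5-fold higher, which held for 4.65%, 4.77%, 5.82% and 6.05% of all genes with E2, E2 with tamoxifen, E2-BSA, and E2-BSA with tamoxifen. JUNB was past 1.5-fold lower with E2 and tamoxifen, E2-BSA, and E2-BSA with tamoxifen, as were 7.87%, 12.1% and 12.3% of all genes. From vehicle to the mean of the exposed arrays FOSL2 rose by 1.77 ± 0.18 (SE; limma, adjusted p = 8.95e-06), and JUNB fell by 0.97 ± 0.33 (adjusted p = 0.0481). Both SEs pool the scatter of both lines. These calls are read against a background of 21.9% of genes called, 919 higher (7.08%) and 1924 lower (14.8%), with a median over all genes of -0.16, and the comparison rests on the 1 A549 vehicle array. With quantile normalization 1169 of 2459 called genes were higher, a share of 47.5% against 32.3%, and FOSL2 stayed at 1.90. The JUNB call was lost in 12 of 17 alternatives, among them leaving out the HTB-182 or A549 E2 with tamoxifen array or either A549 conjugate array, with adjusted p up to 0.131. Without the A549 E2 array IER2 and JUN were called as well, among 5189 genes. SOX2, a squamous marker, was also higher on the exposed A549 arrays by 1.75 ± 0.15 (SE; limma, adjusted p = 2.10e-06). It was the 1 called of 5 squamous markers tested, 20% against 21.9% of all genes. The summed squamous list in A549 ranged from 210.3 to 353.8, and that sum includes SOX2, which ranged from 36.1 to 191.6. The part of SOX2 in the FOSL2 values was not tested.

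The FOSL2 probe sets disagreed on that rise. In A549, 218880_at went with the brightest one, at 14.9 with vehicle and 39.1, 49.0, 43.7 and 48.2 with E2, E2 with tamoxifen, E2-BSA, and E2-BSA with tamoxifen. Its rise was 0.98 ± 0.13 (SE; limma over probe sets, adjusted p = 2.05e-04). The probe set 228188_at read 282.1 with vehicle and 334.7, 266.9, 271.5 and 323.9 after exposure. Its vehicle value lay among the exposed ones, and its difference was 0.07 with a 95% interval of -0.31 to 0.46 (adjusted p = 0.797). The probe set 205409_at pointed the other way, from 31.3 with vehicle to 23.4, 19.6, 24.3 and 21.2 (-0.31, adjusted p = 0.148). The fifth, 218881_s_at, which was under the filter, read 26.0, 18.3, 17.2 and 19.6 after exposure, each above its vehicle array. Averaging all FOSL2 probe sets left a rise of 0.56 (adjusted p = 0.0182).

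FOSL2 is 1 of 249 genes at least 2-fold lower on the A549 vehicle array than on the mean of the other A549 arrays, against 14 genes that were at least 2-fold higher. Of those 249 genes, 134 had another probe set above the filter, and in 10 of them another probe set was also at least 2-fold lower. The median difference of the 239 other probe sets was 0.04. In HTB-182 the vehicle array had 1 gene at least 2-fold lower and 0 higher. The FOSL2 response differed between the lines by 2.07 ± 0.25 (SE; limma interaction, adjusted p = 1.44e-04), where 4.6% of genes were called (2.61% higher and 1.99% lower), and by 0.57 with an adjusted p of 0.0971 when its probe sets were averaged. Of the genes called for that difference 56.8% were higher, against 66.5% with quantile normalization and 69.5% with equal trimmed means.

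**Figure D3:**
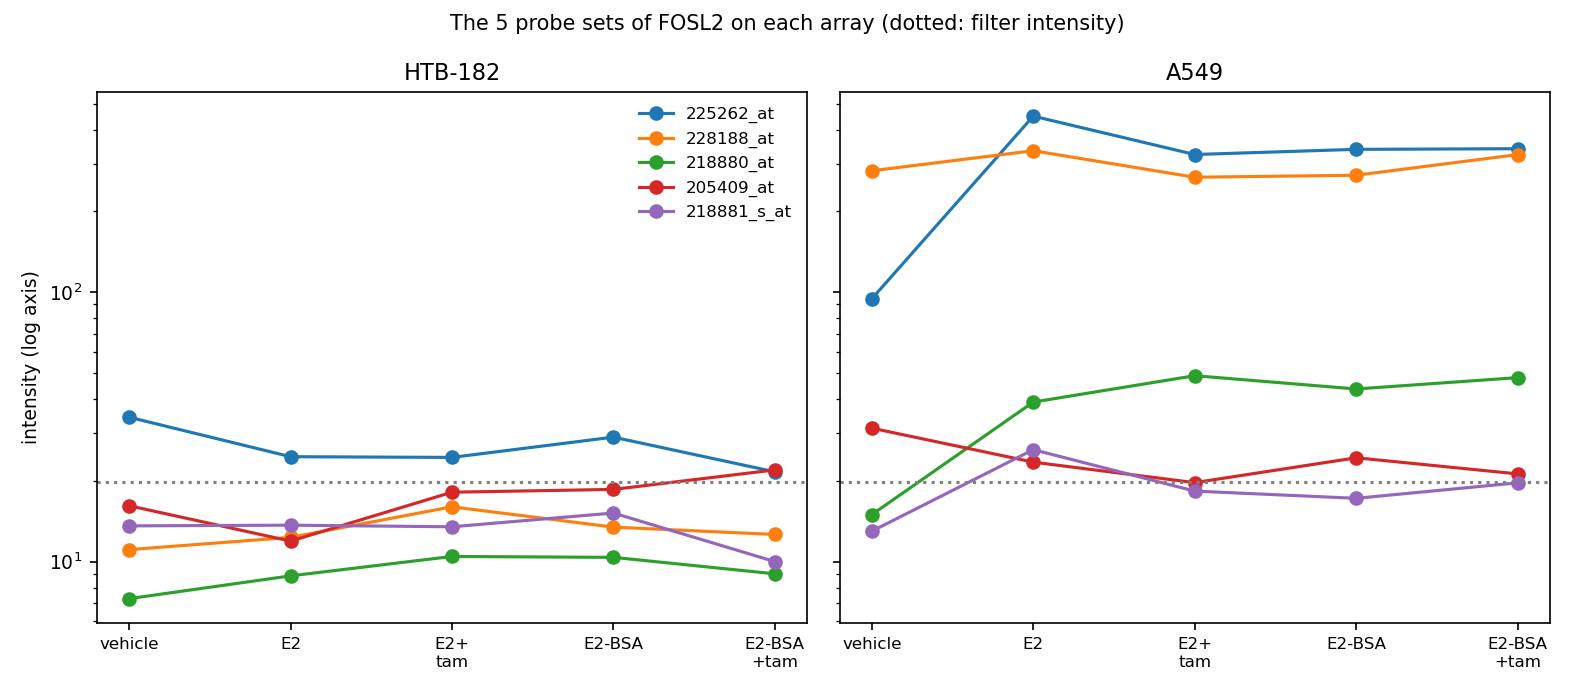
Intensity (log axis) of the 5 FOSL2 probe sets on each array, by exposure (horizontal axis), with HTB-182 on the left and A549 on the right; each point is 1 array. In A549 the probe sets 225262_at and 218880_at are low on the vehicle array, at 94.5 and 14.9, while 228188_at is at 282.1 there and between 266.9 and 334.7 after exposure.

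Among other genes, the same comparison of exposed A549 arrays with the vehicle array called 3 higher and 2 lower of the 32 other immediate early genes, 15.6% against 21.9% of all genes. ZFP36L1, which promotes mRNA decay, rose by 1.78 ± 0.19 (SE), KLF10 by 0.63 ± 0.15 and CCN1 by 0.58 ± 0.19, while GADD45B fell by 0.90 ± 0.19 and NR4A2 by 0.48 ± 0.16 (limma, adjusted p from 1.79e-05 to 0.0422). Of 14 AP-1 targets 35.7% were called: TGFB1 (0.86 ± 0.15), the cyclin CCND1 (0.65 ± 0.15) and CD44 (0.36 ± 0.08) rose, and PLAUR (-0.91 ± 0.18) and the metallothionein MT2A (-0.39 ± 0.13) fell (limma, adjusted p from 0.00162 to 0.0416). Of 18 MYC targets 2 rose and 2 fell, 22.2%, and MYC itself differed by -0.01 with a 95% interval of -0.28 to 0.26.

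JUNB was the 1 member called between the conjugate and free estradiol, and only in A549, the difference between the lines not passing its test. In A549 it read 304.3 with E2 and 197.9 with E2 and tamoxifen, against 88.3 with E2-BSA and 93.6 with E2-BSA and tamoxifen, and 311.2 with vehicle. The E2 array was level with vehicle (-0.03), the 2 conjugate arrays were the lowest of the line, and E2 with tamoxifen lay between. Conjugate minus free estradiol was -1.62 without tamoxifen and -0.97 with it, pairs in which 3.24% and 0.493% of all genes were at least 1.5-fold lower. Over both pairs JUNB fell by 1.29 ± 0.17 (SE), a 2.45-fold decrease with a 95% interval of -1.68 to -0.90 (limma, 8 exposed arrays, adjusted p = 0.0194). The SE pools the scatter of both lines. The A549 pairs lay further apart than the HTB-182 pairs (0.003 and 0.11), so the SE and adjusted p understate the A549 scatter. JUNB was 1 of 8 members and 1 of 31 genes called, or 0.239% of all tested (0.1% higher and 0.139% lower). Of those genes 13 were higher, a share of 41.9% that became 54.1% with quantile normalization and 58.3% with equal trimmed means.

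The call did not survive the loss of either A549 conjugate array, with an adjusted p of 0.330 without the E2-BSA array and 0.147 without the E2-BSA with tamoxifen array, although the difference stayed at -1.20 and -1.39. Without the A549 E2 with tamoxifen array 3051 genes were called, and IER2 and MYC joined JUNB. Without the A549 E2 array 139 genes were called. The beta-actin 3′ to 5′ ratio on the A549 arrays was 3.27 with vehicle, 2.66 with E2, 3.41 with E2 and tamoxifen, and 3.53 and 3.57 on the conjugate arrays, and its part in the JUNB values was not tested.

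In HTB-182, JUNB read 25.3 and 27.2 with free estradiol and 25.4 and 30.7 with the conjugate. The difference was 0.06 with a 95% interval of -0.33 to 0.45 (limma, adjusted p = 0.989), at intensities near the filter. That interval also carries the scatter of the A549 arrays. The difference between the lines was -1.35 ± 0.25 (SE), which did not pass the test (limma interaction, adjusted p = 0.240), and 0.0539% of genes did (0.0231% higher and 0.0308% lower). It passed with array weights (adjusted p = 0.0369), without the A549 E2 array (0.0447) and without the A549 E2 with tamoxifen array (7.09e-04), which also called JUND.

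The other members moved less with the form of estradiol. In A549, MYC was lower on both conjugate arrays than on both free estradiol arrays, by 0.28 and 0.23 in the pairs (fitted difference -0.26, 95% interval -0.44 to -0.08, adjusted p = 0.237), and IER2 was likewise lower (-0.23, 95% interval -0.44 to -0.01, adjusted p = 0.308). EGR1 gave -0.24 (-0.50 to 0.02) and JUN -0.13 (-0.38 to 0.12). The JUN probe sets differed in this: 201465_s_at read 83.4 with E2 and 39.9 with E2 and tamoxifen against 35.5 and 36.4 with the conjugate, and 74.2 with vehicle. Its conjugate difference was -0.95 without tamoxifen and -0.09 with it, or -0.52 (-1.07 to 0.03) in the fit, and 201466_s_at gave -0.36 (limma over probe sets, adjusted p = 0.345 and 0.269). By brightest probe set, with JUNB, these are the 5 members whose conjugate arrays were both below both free estradiol arrays, a pattern of 30.7% of all genes in A549. FOSL1 gave 0.04 (-0.27 to 0.35), JUND -0.09 (-0.32 to 0.15) and FOSL2 -0.16 (-0.47 to 0.15), with limma intervals throughout. In HTB-182 EGR1 alone among the members had both conjugate arrays below, a pattern of 7.04% of all genes there, and 0 members were called, against 0.0077% of all genes.

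Over both lines, the brightest probe sets of EGR1, IER2 and JUN were lower with the conjugate in 4 of 4 pairs, 1 JUN pair being at -0.004. Of all genes, 18% were lower in both lines without tamoxifen and 18.7% with it, and the share lower in all 4 pairs was not counted. JUN 201465_s_at and EGR1 201693_s_at, the latter under the filter, were higher with the conjugate in HTB-182 without tamoxifen (0.26 and 0.22). The remaining JUN and EGR1 probe sets were lower in each pair. EGR1 differed by -0.21 (95% interval -0.42 to 0.01), IER2 by -0.13 (-0.36 to 0.10) and JUN by -0.11 (-0.34 to 0.13). JUNB, which differed by -0.62 (-1.24 to 0.01), was lower in 2 of 4 pairs. The median of the 8 members was -0.12 against -0.004 for all genes, and 0 members were called in limma, against 0.0077% of all genes. At an unadjusted p under 0.05 there were 377 genes and 0 members. Between the arrays with no tamoxifen, E2-BSA against E2 called 0 members and 0% of genes, with EGR1 at -0.27 (-0.57 to 0.03) and FOSL1 at -0.23 (-0.54 to 0.08).

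None of the other lists had a gene called for conjugate against free estradiol in A549. The smallest adjusted p among them was 0.0612, for CXCL8, an AP-1 target, at 0.97 ± 0.17 (SE), and IL11, a cytokine on the same list, was at -0.99 ± 0.19 (limma, adjusted p = 0.0836). DUSP1, a phosphatase that shuts off the kinases, was at 0.49 ± 0.09 (limma, adjusted p = 0.0742).

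**Figure D4:**
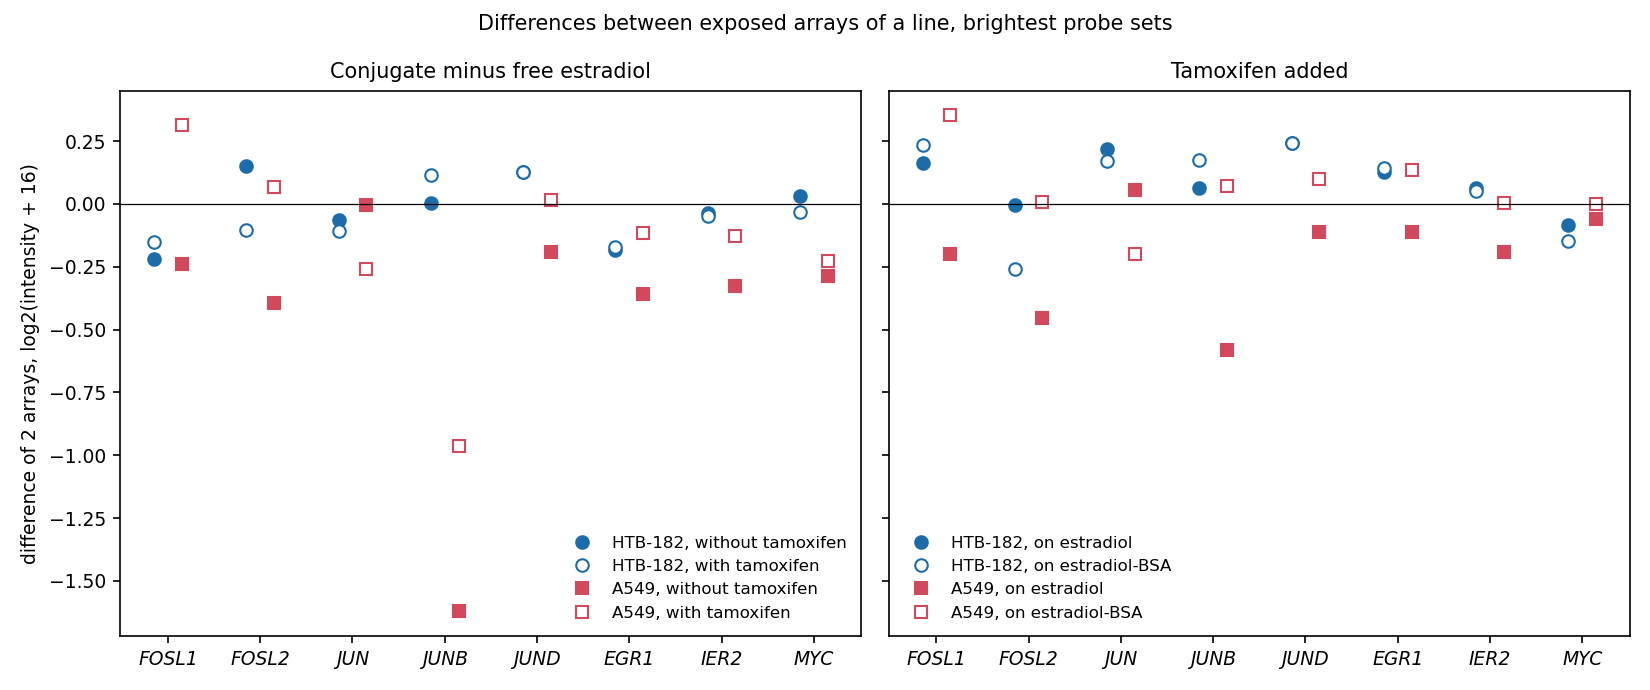
Differences between pairs of exposed arrays of a line, on the log2(intensity + 16) scale (vertical axis), for the 8 tested members: the conjugate minus free estradiol on the left and tamoxifen added on the right. Circles are HTB-182 and squares A549, with filled and open marks for the 2 pairs of each line. JUNB in A549 lies at -1.62 and -0.97 on the left, and every other point of that panel is between -0.39 and 0.31.

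No member passed the test for tamoxifen. Added to either form of estradiol, it gave 0 called members and 0% of all genes called in limma, with 151 genes and 0 members at an unadjusted p under 0.05. MYC was lower with tamoxifen in 4 of 4 pairs (-0.07, 95% interval -0.27 to 0.12), 1 of them at -0.002. Of all genes, 25% were lower in both lines with tamoxifen on E2 and 18.7% with it on E2-BSA. JUND (0.12, -0.11 to 0.35), FOSL1 (0.14, -0.08 to 0.35), JUN (0.06, -0.17 to 0.30) and EGR1 (0.07, -0.14 to 0.29) were higher in 3 of 4 pairs each. JUNB in A549 was -0.58 with tamoxifen on E2 and 0.07 on E2-BSA, and FOSL2 was -0.45 and 0.01 in the same pairs. In HTB-182, 6 of the 8 members were higher with tamoxifen in both pairs, as were 36.8% of all genes, and in A549 0 members were, against 17.6%. The difference in the tamoxifen effect between the lines called 0 members and 0% of genes, and neither line alone called a member (0.0154% of genes in HTB-182 and 0% in A549).

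The members also varied unequally within a line. After each line's mean was taken off, FOSL2 and JUNB had standard deviations of 0.59 and 0.57 over the 10 arrays, at the 99.3 and 99.2 percentiles of all tested genes. The other 6 members lay between 0.10 and 0.14, against a median of 0.15. This spread is carried by A549, where FOSL2 and JUNB had 0.81 and 0.80, and in HTB-182 they had 0.17 and 0.08.

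For JUN, EGR1 and MYC, the genes with the most similar pattern over the 10 arrays were named by Pearson's r after each line's mean was removed, among 3314 genes that varied enough (SD of at least 0.2). EGR1 was closest to CCN1 (r = 0.89), a matrix protein and itself an immediate early gene, HERPUD1 (0.87) and KSR1 (0.87). MYC was closest to CLDN2 (0.93), DCBLD1 (0.90) and SRR (0.89), and JUN to LOC105373383 (0.94), MYOCD (0.93) and AHDC1 (0.92). The points share arrays and their overall brightness, so these correlations describe the 10 arrays and carry no test.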

How the data were processed

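The authors deposited 1 table of intensities on a linear scale, for 54675 probe sets on 10 arrays. MAS5 is named in the submitters' processing notes, with no version, scaling target or genome build given in the sources used here. The deposited intensities had 2% trimmed means of 105.9 to 115.7, which a common scaling target would have made equal, and 3716 probe sets (6.80%) had exactly the same value on 2 or more arrays, so how they were summarised is not settled. The number of arrays limits the precision.

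Probe sets were named from GEO's platform annotation: 41091 name 1 gene, 1801 several and 11721 none, beside 62 controls. Intensities were used as deposited, as log2(intensity + 16). The brightest single-gene probe set stood for a gene, and genes under the median mean level of all probe sets were left out. Differences were tested with limma 3.58.1 (R 4.3.3), lmFit and eBayes with an intensity trend, with p-values adjusted by Benjamini-Hochberg over the 12979 genes. The additive fit had line and treatment on all 10 arrays. Effects of estradiol form and tamoxifen within a line came from the 8 exposed arrays with an interaction term, and exposure within a line from an interaction on 10 arrays that fits each vehicle array exactly. Each fit took 1 residual spread per gene over both lines, also for effects within a line. The fit was tested on simulated data.

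Besides the members, at most 4 genes of each list were named, those of largest change among the called, and for JUN, EGR1 and MYC the 3 most similar genes; FOS was under the filter. Genes named outside this rule (CXCL8, IL11, DUSP1, and the called genes of A549 exposure) were chosen after their values were seen. The members and lists were chosen with earlier results of these data known. Alternatives were other pseudocounts (1 and 64), filters, normalizations, probe set summaries, variance models, array weights and leaving out each array.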

Additional observations from a re-analysis of the deposited data

Results flagged for a closer look

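FOSL2 on the A549 vehicle array lay far from the other 4 A549 arrays. Its intensity there was 94.5, and its gap to the nearest array was 0.781 of the whole range on the log2(intensity + 16) scale, above Dixon's 95% critical value for 5 arrays. Over 20 groups examined (10 genes in 2 lines) this was the only one past it, and chance flags about 1 group in 20.

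The FOSL2 difference between exposed and vehicle arrays was larger in A549 than in HTB-182 by 2.07 (limma interaction, adjusted p = 1.44e-04), with each line resting on 1 vehicle array.

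JUNB pairs of conjugate minus free estradiol had opposite signs in the lines: both A549 pairs were below 0, at -1.62 and -0.97, and both HTB-182 pairs were just above it, at 0.003 and 0.11. The HTB-182 difference of 0.06 was not called (95% interval -0.33 to 0.45), so no change in HTB-182 is shown. The mean HTB-182 difference minus the mean A549 difference was 1.35, in 1 of 16 such checks, and this pattern of signs was not tested as such. The interaction in limma gave an adjusted p of 0.240.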

How the results depend on the processing

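Counts of members called were compared over alternatives, those for effects within a line being chosen after the data were seen. For the 5 comparisons against vehicle the main count of 0 became 1, 2, 1, 2 and 2 without the HTB-182 vehicle array (E2, E2-BSA, E2 with tamoxifen, E2-BSA with tamoxifen, any exposure) and 0 otherwise, so leaving out an array gave 0 to 1 or 0 to 2. The difference between lines in the effect of estradiol form went from 0 to 1 (JUNB) with array weights and ranged from 0 to 2 over left-out arrays. The difference between lines in any exposure went from 1 to 0 with averaged probe sets and to 2 with array weights, and ranged from 1 to 2 over left-out arrays (2 without the E2 array of either line). The effect of estradiol form in A549 went from 1 to 0 with a filter at the 75th percentile, which leaves JUNB untested, and to 0 with averaged probe sets (JUNB adjusted p = 0.0635), and ranged from 0 to 3 over left-out arrays. Its count of all genes, 31, was 58 with a pseudocount of 64, 48 with equal trimmed means, 20 with the stricter filter, 18 with array weights and 3 with averaged probe sets. Exposure in A549 went from 2 to 1 with pseudocounts of 1 and 64, no filter, the stricter filter, quantile normalization, equal trimmed means, averaged or all probe sets and no trend, JUNB being the one lost or untested, and ranged from 1 to 4 over left-out arrays. Its count of all genes, 2843, was 1847 with averaged probe sets and 4255 with array weights. The count of all genes differing between lines by exposure, 597, was 186 with averaged probe sets and 2091 with array weights. Over left-out arrays the counts of all genes ranged from 8 (without A549 E2-BSA) to 3051 (without A549 E2 with tamoxifen) for form in A549, from 1270 (without A549 E2-BSA with tamoxifen) to 5189 (without A549 E2) for exposure in A549, and from 287 (without A549 E2-BSA with tamoxifen) to 3035 (without A549 E2) for the line difference in exposure. For the line difference in form, 3 of 7 called genes were higher, against 3 of 4 with quantile normalization or equal trimmed means, 13 were called with array weights, and left-out arrays gave 0 (without A549 E2-BSA or HTB-182 E2-BSA with tamoxifen) to 1949 (without A549 E2 with tamoxifen). For single members, 2495 of 2664 alternative values kept their call and direction or, with no call, stayed within 1 residual SD, 126 moved further without a call, 23 lost a call and 20 gained one, and no call changed direction. Exposure within a line or between lines cannot be fitted without a vehicle array. The labels carry no replicate number, so no replicate block was fitted, and the line and treatment terms already set arrays of a line or treatment against each other.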
